A study of Mus musculus with 11 samples.

Results

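Transcripts of 10 CC chemokine genes, Ccl17, Ccl22, Ccl2, Ccl7, Ccl24, Ccl3, Ccl4, Ccl5, Ccl6 and Ccl9, were followed through cultures of mouse monocytes that yield Langerhans-like cells. The genes were taken by symbol from the table of normalized counts, where all 10 were found among 21860 genes, and 9 of them passed the filter on low values that preceded testing. Bulk RNA sequencing had been done on 11 samples of CD11b-low EpCAM+ cells sorted after 6 days from cultures of C57BL/6 bone marrow monocytes, in 5 groups. GM-CSF (20 ng/ml), which sustains monocytes and their progeny, was in every culture. The Jag1 only sample (n = 1) had in addition Jagged-1 (Jag1), a ligand of Notch receptors, and no TGFβ or IL-34. The remaining 10 samples were given IL-34 (8 µg/ml) with TGFβ (5 ng/ml), cytokines that favour Langerhans cell differentiation. Of these, 2 had no further addition (TGFβ/IL-34), 2 had FICZ (TGFβ/IL-34/FICZ), 3 had Jag1 (TGFβ/IL-34/Jag1) and 3 had Jag1 together with FICZ (TGFβ/IL-34/Jag1/FICZ). Below, Jag1 alone stands for TGFβ/IL-34/Jag1 and not for the Jag1 only sample. FICZ is a ligand of the aryl hydrocarbon receptor (Ahr). The study uses it as an agonist, whereas the deposited design text names it an antagonist. Its dose and the age of the mice are not given in the sources used here. The study supplied Jag1 by coculture on OP9 cells, a mouse stromal line, made to display it. The titles and treatments name Jag1 in 7 of the 11 samples, by which they were grouped, whereas the cell type label gives OP9 coculture for all 11. Whether the 4 samples without Jag1 were grown on plain OP9 cells or on none is not settled by the sources used here, so effects of the ligand and of the stroma cannot be told apart.

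CC chemokines are small secreted proteins named for a pair of adjacent cysteines near the start of the mature chain. They bind receptors of the CCR family on other leukocytes and guide them along a gradient. Langerhans cells and other dendritic cells secrete Ccl17 and Ccl22, which attract T cells that carry Ccr4. Inflammatory members such as Ccl2, Ccl3, Ccl4 and Ccl5 recruit monocytes, T cells and other leukocytes.

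The family's defining feature is shown for Ccl17 and Ccl22, the leading members, and for Ccl24 and Ccl9, which had the largest log2 fold changes with Jag1 and with FICZ, as the stretch of coding sequence that holds the adjacent cysteine codons. Each stretch is 30 bases, read 5′ to 3′ on the coding strand of the canonical transcript in GENCODE vM39, and the capitals mark the cysteine codon pair.
Ccl17: gtaggccgagagTGCTGCctggattacttc
Ccl22: gaagacagtatcTGCTGCcaggactacatc
Ccl24: atcccctcatctTGCTGCacgtcctttatt
Ccl9: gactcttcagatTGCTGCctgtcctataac
Such a pair was found in frame in all 10 genes.

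Library totals ran from 21.3 to 27.8 M normalized counts, with an estimated 20.6 to 24.3 M reads, and 1 read was worth 0.894 to 1.15 normalized counts. The limit that a count of 0 allows (3 reads) was therefore 2.68 to 3.44 normalized counts, which covers counting error only. The first TGFβ/IL-34/FICZ library stood apart from the rest. It differed from the second by a median of 0.719 on the log2 scale over all genes tested, against 0.163 to 0.327 between the replicates of the other groups. Fits without it are given beside each contrast that it enters. Nothing in the labels states that replicates were separate cultures or animals, so p-values measure the spread between these samples, which may be technical. Epcam was at 657 normalized counts in the Jag1 only sample and at 3952 to 14376 in the others, and Cd207, which encodes langerin of Langerhans cells, was at 6.21 to 8.39 in 4 of the 5 FICZ samples. In bulk RNA, fewer cells of a type and less RNA per cell cannot be told apart.

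Ccl22 and Ccl17 were the leading CC chemokine transcripts of these cultures. Levels of different genes were compared as normalized counts per kilobase of annotated exon. On this scale Ccl22 stood first in each of the 5 groups, and Ccl17 stood second in all but the Jag1 only sample, where Ccl5 was second. Without Jag1, both genes were near parity: in TGFβ/IL-34, Ccl17 gave 46.0% and Ccl22 gave 48.4% of the summed signal of the 10 genes per kilobase, and in TGFβ/IL-34/FICZ the shares were 47.1% and 47.2%. With Jag1 the balance moved toward Ccl22, which made up 85.8% to 90.6% in the 3 TGFβ/IL-34/Jag1 samples, while Ccl17 made up 7.27% to 10.3%. TGFβ/IL-34/Jag1/FICZ lay between these, with 17.6% to 19.7% Ccl17 and 73.3% to 74.7% Ccl22. The other end of the order was held by Ccl7, which came last in every group and was at 0 in all 4 samples without Jag1.

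**Figure D1:**
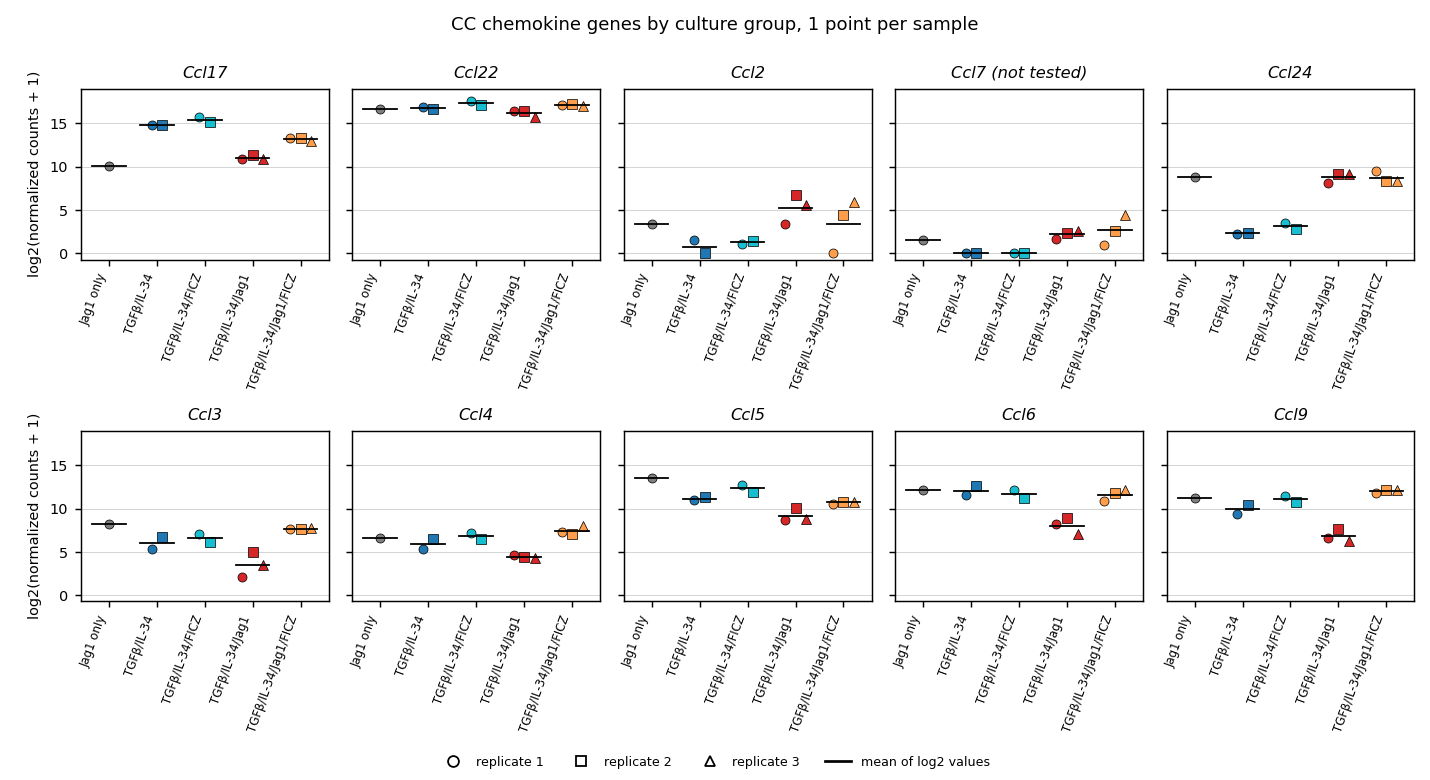
Level of each of the 10 genes as log2(normalized counts + 1) on the vertical axis, by culture group on the horizontal axis. Points are single samples (symbol by replicate number) and bars are group means of the log2 values. Ccl24 is low in the 4 samples without Jag1 and high in the 7 with it, whereas Ccl9, Ccl6 and Ccl3 are lowest in the 3 TGFβ/IL-34/Jag1 samples.

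**Figure D2:**
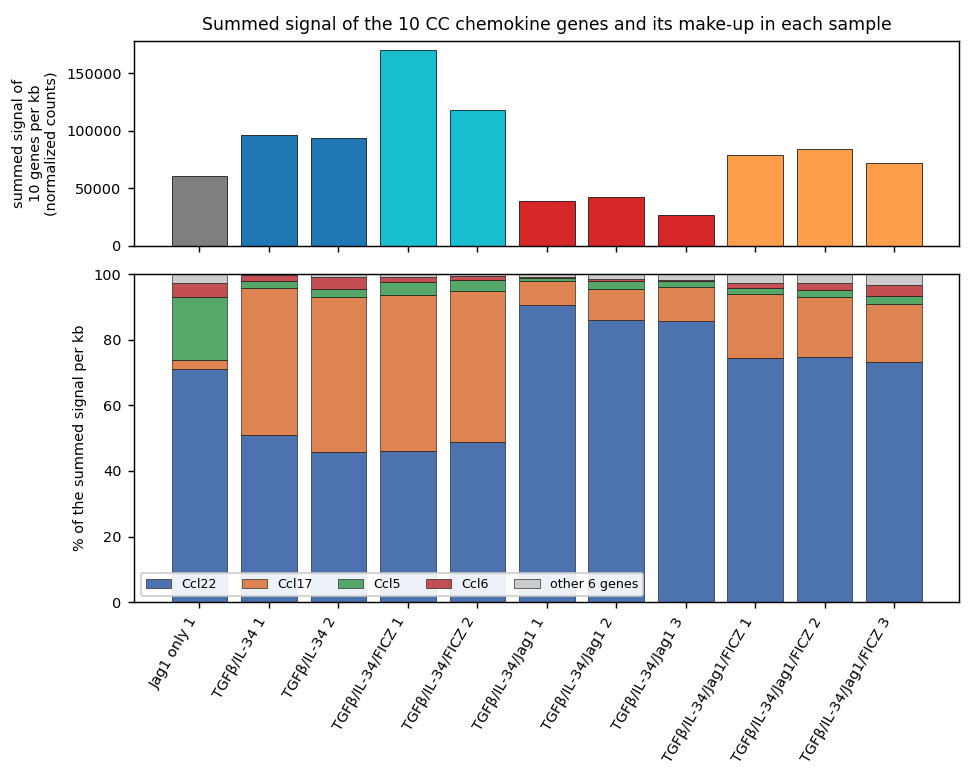
Upper bars give the summed signal of the 10 genes per kilobase of exon in each sample, in normalized counts, and lower bars give the percentage of that sum from Ccl22, Ccl17, Ccl5, Ccl6 and the remaining 6 genes. Ccl17 and Ccl22 take nearly equal shares in the 4 samples without Jag1, and Ccl22 takes 71.2% or more in the 7 samples with it.

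Each contrast was tested with limma across 13095 genes with Benjamini-Hochberg adjustment, and a gene was called at an adjusted p below 0.05. Values given as x-fold are ratios of the group means of normalized counts. Log2 fold changes, with their SE and p, are limma differences of mean log2(normalized counts + 1), so the 2 measures need not match. Addition of Jag1 without FICZ moved 5 of the 9 tested CC chemokines. Ccl24 rose and Ccl17, Ccl5, Ccl6 and Ccl9 fell, while over all genes 2.64% were called higher and 3.96% lower. The members had a median log2 fold change of -1.96, against -0.0041 over all genes tested. FICZ in the presence of Jag1 raised 7 of 9 (Ccl17, Ccl22, Ccl3, Ccl4, Ccl5, Ccl6 and Ccl9) and lowered none, against 10.9% of all genes called higher and 6.71% lower. Here the members' median was 2.19, beside -0.0083 for all genes. With only its own groups fitted, 3598 genes were called in this contrast in place of 2312. With the replicate number added to that fit as a block, which pairs these samples, 4171 were called. Both fits called the same 7 members. FICZ in the absence of Jag1 moved none of the 9 (limma, adjusted p below 0.05). An unadjusted p under 0.05 was found for 3 of the 9, and for 2284 of all 13095 genes. That contrast called few genes of any kind, 0.0153% higher and 0.00764% lower. Jag1 in the presence of FICZ moved 2 of 9, with Ccl24 higher and Ccl17 lower, where 1.41% of all genes were called higher and 0.603% lower. With both additions against TGFβ/IL-34, Ccl24 and Ccl9 rose and Ccl17 fell, beside 3.12% of genes called higher and 1.37% lower. The contrasts share groups with each other, so their counts are not independent. Without the first TGFβ/IL-34/FICZ library, the 9 genes had adjusted p of 0.828 to 0.992 in FICZ without Jag1, and Ccl24 and Ccl17 were again called in Jag1 with FICZ, at 0.00474 and 0.00608. Without the second TGFβ/IL-34/FICZ library, that group rests only on the library that stood apart. Ccl17, Ccl5 and Ccl9 then passed in FICZ without Jag1, and Ccl5 in Jag1 with FICZ, but so did a large share of all genes. These calls therefore cannot be told apart from the general shift of that library.

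**Figure D3:**
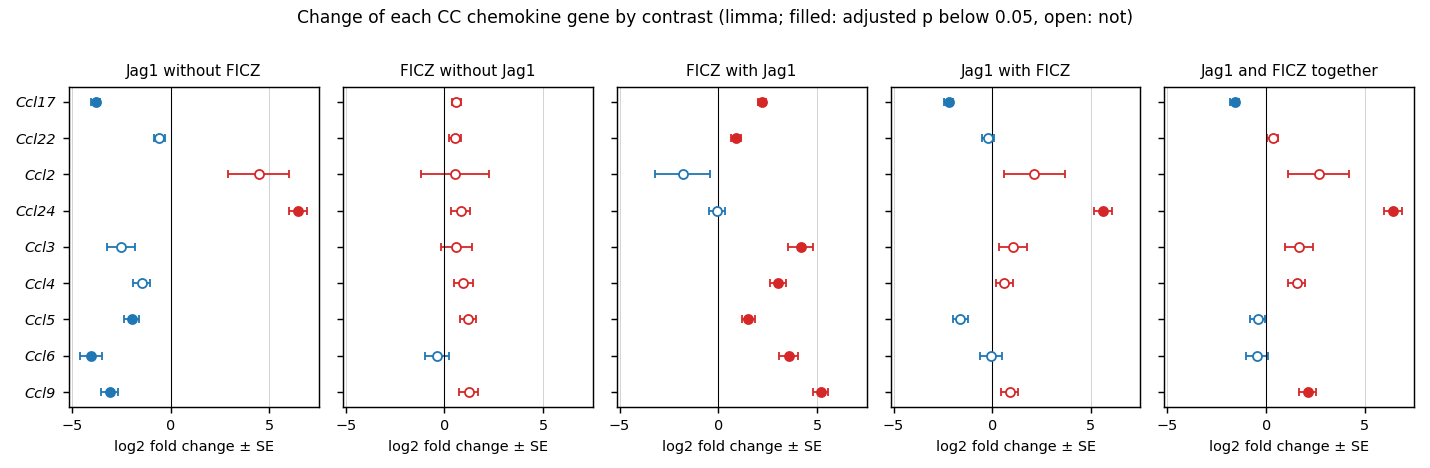
Log2 fold change of the 9 tested genes (horizontal axis, bars are SE from limma) in 5 contrasts, with filled points where the adjusted p was below 0.05. Red points lie above and blue points below 0. Ccl24 stands at 5.59 to 6.47 in the 3 contrasts that add Jag1, and all 7 filled points of FICZ with Jag1 lie above 0.

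Ccl17 and Ccl22 are the ligands of Ccr4. Ccl17 (ENSMUSG00000031780) was at 28755 and 29265 normalized counts in TGFβ/IL-34, at 53747 and 36193 in TGFβ/IL-34/FICZ, at 1882, 2643 and 1853 in TGFβ/IL-34/Jag1, and at 10265, 10248 and 8377 in TGFβ/IL-34/Jag1/FICZ. None of the 4 groups overlapped, and every sample with Jag1 was below every sample without it. With 2 or 3 samples per group, how many of all genes separate in this way was not counted, here or for the genes below. In the absence of FICZ the mean was 13.6-fold lower with Jag1 (log2 fold change -3.79 ± 0.22 SE, adjusted p 2.95e-05), and in its presence 4.67-fold lower (-2.20 ± 0.22, adjusted p 0.0024). FICZ raised Ccl17 4.53-fold on top of Jag1 (2.19 ± 0.20, adjusted p 8.41e-05). Within the 3 experiment codes of the sample descriptions that rise was 1.95, 2.18 and 2.45 on the log2 scale, and within the 2 codes that hold both groups the fall with Jag1 was -3.44 and -3.98. The level with both additions remained 3.01-fold below that of TGFβ/IL-34 (-1.60 ± 0.22, adjusted p 0.00531). The call of that last contrast was lost without either TGFβ/IL-34 library, at adjusted p 0.0802 and 0.0543, and the call of Jag1 with FICZ was lost with the replicate block, at 0.323, and when only its own groups were fitted, at 0.0826.

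Ccl22 (ENSMUSG00000031779) varied far less. Its values were 119579 and 105077 normalized counts in TGFβ/IL-34, 191080 and 140938 with FICZ, 86317, 89709.6 and 56559 with Jag1, and 142937, 153924 and 128410 with both. The 3 samples with Jag1 alone were the lowest of all 11. FICZ raised it 1.83-fold in the presence of Jag1 (log2 fold change 0.90 ± 0.25 SE, limma, adjusted p 0.034), with 0.73 to 1.18 within the 3 experiment codes. This call was the least secure of the 7 in that contrast. It was lost on leaving out any of 5 of the 6 libraries, with adjusted p of 0.053 to 0.131, the exception being the second TGFβ/IL-34/Jag1 library, and at 0.0812 without a filter on low values. The difference with Jag1 alone was -0.56 ± 0.28 and did not pass (adjusted p 0.334). No other contrast passed for Ccl22.

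The sequences before the transcription starts of Ccl17 and Ccl22 are shown because these neighbours share a receptor and differed in how they moved. They are followed by that of Ccl9, which had the largest log2 fold change with FICZ in the presence of Jag1. Each is the 250 bases before the start of the canonical GENCODE vM39 transcript, from GRCm39, in the direction of transcription. Capitals mark matches on either strand to the Ahr response element core GCGTG, the RBPJ motif TGGGAA of the Notch pathway, the STAT motif TTCNNNGAA, the TATA box TATAAA and the NF-κB consensus.
Ccl17, chr8:95536825-95537074, plus strand: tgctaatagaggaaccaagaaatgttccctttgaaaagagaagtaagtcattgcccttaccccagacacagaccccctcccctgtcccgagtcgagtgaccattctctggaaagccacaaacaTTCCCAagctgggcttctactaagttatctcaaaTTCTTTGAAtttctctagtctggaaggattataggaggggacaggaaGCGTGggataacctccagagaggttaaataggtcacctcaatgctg
Ccl22, chr8:95471968-95472217, plus strand: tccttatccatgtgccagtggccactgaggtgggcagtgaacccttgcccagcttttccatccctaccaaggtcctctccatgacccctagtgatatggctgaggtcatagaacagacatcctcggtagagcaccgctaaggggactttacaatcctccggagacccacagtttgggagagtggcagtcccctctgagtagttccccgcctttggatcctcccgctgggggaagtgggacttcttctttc
Ccl9, chr11:83469468-83469717, minus strand: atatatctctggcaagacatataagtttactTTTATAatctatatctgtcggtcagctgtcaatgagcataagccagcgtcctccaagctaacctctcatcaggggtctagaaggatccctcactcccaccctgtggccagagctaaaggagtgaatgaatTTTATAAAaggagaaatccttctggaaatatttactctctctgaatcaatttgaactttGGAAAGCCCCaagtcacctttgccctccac
The Ccl17 window held 1 match each to the Ahr core, RBPJ and STAT motifs. No match was found in the Ccl22 window. The Ccl9 window held an NF-κB match and 3 TATA matches, of which 2 overlap on opposite strands. Ccl17 was the only member of the 10 with the Ahr core, which 40% of the 13070 tested genes with such a window also hold, and the only member with the RBPJ motif, found in 21.9%. The STAT motif occurred in 3 members and in 6.79% of all windows, the TATA box in 4 and in 7.44%, and the NF-κB consensus in 2 (Ccl5 and Ccl9) and in 8.55%. The Ccl17, Ccl22 and Ccl9 windows lie within the span of their genes, since another annotated transcript starts further upstream, but overlap none of their exons. A match is a description of letters and no evidence of binding, and which start the cells used was not tested.

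Ccl2 and Ccl7 attract monocytes through Ccr2 and were near the limit of detection without Jag1. Ccl2 (ENSMUSG00000035385) was at 1.89 and 0 normalized counts in TGFβ/IL-34, at 1.17 and 1.76 with FICZ, at 9.20, 106 and 46.7 with Jag1, and at 0, 19.9 and 58.4 with both. All 3 TGFβ/IL-34/Jag1 samples exceeded every sample without Jag1, but the group with both additions overlapped these. No contrast passed for Ccl2, the largest difference being 4.45 ± 1.56 for Jag1 without FICZ (limma, adjusted p 0.137), which passed with the experiment code of the descriptions as a block, at 0.0323, but not with the code of the authors' table, at 0.147. Ccl7 (ENSMUSG00000035373) was at 0 in the 4 samples without Jag1, at 2.24, 4.13 and 4.96 with Jag1, and at 0.928, 5.23 and 20.4 with both, and was too low to be tested. Markers of stroma were also higher with Jag1. Their summed level was 151 to 250 in samples without Jag1, 603 to 1495 in TGFβ/IL-34/Jag1 and 1280 to 6039 in TGFβ/IL-34/Jag1/FICZ. The Jag1 transcript is among these markers and made up most of the sum in samples without Jag1, at 113 to 226. It was at 212 to 437 in TGFβ/IL-34/Jag1 and at 542 to 1397 with both additions, so the sums understate the rise of the other markers together. With Jag1 without FICZ, 5 of 9 tested stromal markers rose. In the TGFβ/IL-34/Jag1/FICZ samples the sums were 1280, 2655 and 6039, in the same order as Ccl2 and Ccl7. In TGFβ/IL-34/Jag1 they were 889, 1495 and 603, in an order that neither gene shared, though Ccl2 was highest in the sample at 1495. The sum in the Jag1 only sample was 927, with Ccl2 at 9.44 and Ccl7 at 2.05. The sums were also higher on average with both additions than with Jag1 alone. Mean Ccl7 was likewise higher, at 8.84 against 3.78, whereas mean Ccl2 was lower, at 26.1 against 53.8. Of the 12 listed stromal markers, Dcn and Lum were at 0 in all samples. The part of carried-over OP9 cells in the Ccl2 and Ccl7 values was not tested.

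Ccl24, also called eotaxin-2, attracts eosinophils through Ccr3, and it gave the largest response to Jag1 of the 9 tested genes. Ccl24 (ENSMUSG00000004814) was at 3.89 and 4.20 normalized counts in TGFβ/IL-34 and at 10.2 and 6.07 in TGFβ/IL-34/FICZ. It was at 285, 565 and 556 in TGFβ/IL-34/Jag1 and at 716, 340.5 and 318 in TGFβ/IL-34/Jag1/FICZ. The groups with and without Jag1 were far from overlapping. Jag1 raised it 116-fold without FICZ (log2 fold change 6.47 ± 0.45 SE, limma, adjusted p 4.95e-05) and 56.5-fold with FICZ (5.59 ± 0.45, adjusted p 0.000986). These ratios rest on a few reads in the lower group, an estimated 8.48 reads summed over both TGFβ/IL-34 libraries. A difference with FICZ on top of Jag1 was not detectable (-0.07 ± 0.41, adjusted p 0.94), and the value in the Jag1 only sample, 464, fell within the range of the TGFβ/IL-34/Jag1 samples. Within the 2 experiment codes that hold both groups, the rise with Jag1 was 6.74 and 6.85 without FICZ, and 5.60 and 6.01 with it. The call for Jag1 with FICZ was lost when only its own groups were fitted (adjusted p 0.0565). The stromal sums were also higher with Jag1, as given for Ccl2, and the part of OP9 cells in Ccl24 was not tested. Within TGFβ/IL-34/Jag1/FICZ, Ccl24 was highest in the sample with the lowest stromal sum. Within TGFβ/IL-34/Jag1 it was highest, at 565, in the sample with the highest sum, 1495. Its value of 556 there was in the sample with the lowest sum, 603. With Jag1 without FICZ, Col1a2 had the largest rise of the 5 called stromal markers. The others were Fbln2, Col1a1, Bgn and Col3a1, at 6.73, 6.37, 5.28 and 3.91 on the log2 scale. The 6.47 of Ccl24 lay within the range of the 5, below Col1a2 and Fbln2 and above the rest. Sparc and the Jag1 transcript had smaller differences, 3.49 and 0.66, that did not pass.

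Ccl3, Ccl4 and Ccl5, inflammatory chemokines, were low in TGFβ/IL-34/Jag1 and higher once FICZ was added. Ccl3 (ENSMUSG00000000982), also known as MIP-1α, was at 40.8 and 102 normalized counts in TGFβ/IL-34, 134 and 72.6 with FICZ, 3.39, 31.2 and 10.02 with Jag1, and 198, 202 and 221 with both. The samples with both additions were above all other samples given TGFβ and IL-34, and those of TGFβ/IL-34/Jag1 were below them. FICZ with Jag1 raised Ccl3 13.9-fold (log2 fold change 4.16 ± 0.65 SE, limma, adjusted p 0.00162), against a difference of -2.50 ± 0.72 for Jag1 without FICZ that did not pass (adjusted p 0.0726). Ccl4 (ENSMUSG00000018930), or MIP-1β, had the same order of group means, with 40.4 and 86.5 in TGFβ/IL-34, 147 and 91.2 with FICZ, 23.7, 19.8 and 19.2 with Jag1 and 159, 137 and 251 with both. Its rise with FICZ in the presence of Jag1 was 8.72-fold (3.02 ± 0.38, adjusted p 0.000525), and Jag1 without FICZ gave -1.46 ± 0.43 (adjusted p 0.0757). In the 3 experiment codes the rise was 2.65, 4.33 and 5.50 for Ccl3 and 2.69, 2.73 and 3.64 for Ccl4.

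Ccl5 (ENSMUSG00000035042), or RANTES, attracts T cells. It was at 2055 and 2535 normalized counts in TGFβ/IL-34, 6930 and 3862 with FICZ, 413, 1041 and 465 with Jag1, and 1523, 1746 and 1794 with both. The 4 groups did not overlap, and the samples with both additions stayed below those of TGFβ/IL-34. It fell 3.59-fold with Jag1 without FICZ (log2 fold change -1.96 ± 0.37 SE, limma, adjusted p 0.012), a call that did not pass without the first or the second TGFβ/IL-34 library, at 0.0719 and 0.147. FICZ raised it 2.64-fold in the presence of Jag1 (1.52 ± 0.33, adjusted p 0.0102), by 0.75, 1.88 and 1.95 on the log2 scale within the 3 experiment codes. In the absence of Jag1 the FICZ difference was 1.18 ± 0.41 and did not pass (adjusted p 0.285).

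Ccl6 and Ccl9 are rodent chemokines that bind Ccr1 and are made by myeloid cells. Ccl6 (ENSMUSG00000018927) was at 3094 and 6095 normalized counts in TGFβ/IL-34, 4621 and 2372 with FICZ, 298, 471 and 133 with Jag1, and 1911, 3596 and 4467 with both. Only the TGFβ/IL-34/Jag1 samples stood apart, below all others. The gene fell 15.3-fold with Jag1 without FICZ (log2 fold change -4.03 ± 0.55 SE, limma, adjusted p 0.00217) and rose 11.1-fold with FICZ in the presence of Jag1 (3.55 ± 0.49, adjusted p 0.000821). Between TGFβ/IL-34 and the group with both additions the difference was -0.47 ± 0.55 (adjusted p 0.753). Within experiment codes Ccl6 fell by 2.71 and 5.50 on the log2 scale with Jag1, and rose by 2.68, 2.93 and 5.05 with FICZ.

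Ccl9 (ENSMUSG00000019122) gave the largest rise with FICZ in the presence of Jag1 among the 9 tested genes. Its values were 654 and 1416 normalized counts in TGFβ/IL-34, 2923 and 1731 with FICZ, 98.1, 199 and 74.7 with Jag1, and 3625, 4522 and 4399 with both. The 4 groups did not overlap, with the TGFβ/IL-34/Jag1 samples lowest and those with both additions highest. Ccl9 fell 8.36-fold with Jag1 without FICZ (log2 fold change -3.07 ± 0.43 SE, limma, adjusted p 0.00254) and rose 33.8-fold with FICZ in the presence of Jag1 (5.19 ± 0.39, adjusted p 2.98e-05), by 4.50, 5.19 and 5.86 within the 3 experiment codes. With both additions it was also 4.04-fold higher than in TGFβ/IL-34 (2.11 ± 0.43, adjusted p 0.0239). That call was lost in 7 alternatives, among them without the first TGFβ/IL-34 library (adjusted p 0.277) and without each TGFβ/IL-34/Jag1/FICZ library (0.0721 to 0.0949).

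Markers of other leukocytes rose in the same contrast as Ccl3, Ccl4, Ccl5, Ccl6 and Ccl9. With FICZ in the presence of Jag1, 7 of 9 tested neutrophil and granulocyte progenitor markers, 7 of 8 mast cell and basophil markers, 4 of 4 eosinophil markers and 5 of 5 T cell and NK cell markers rose and none fell. The summed granulocyte markers were 267 to 375 normalized counts in TGFβ/IL-34/Jag1 and 8403 to 12973 with FICZ. The mast cell and basophil sums were 1862 to 2988 and 11478 to 17410, the eosinophil sums 43.01 to 181 and 1195 to 2351, and the T cell and NK cell sums 0 to 13.1 and 194 to 408. Among defining markers, Fcer1a was at 0 in all samples, Ly6g in 10 of 11 and Ncr1 in 10 of 11. Of 10 markers of Langerhans cells and of the sort, 4 fell in that contrast, Cd207 most (-6.27 ± 0.88, adjusted p 0.000908). The part of such cells in the rise of these chemokines was not tested.

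Dependence of the FICZ effect on Jag1 was tested as an interaction term, which called 3 of the 9 genes, beside 1.17% of all genes higher and 0.221% lower. The FICZ effect was larger with Jag1 for Ccl9 by 3.96 ± 0.61 on the log2 scale (limma, adjusted p 0.0221), for Ccl6 by 3.95 ± 0.77 (adjusted p 0.043) and for Ccl17 by 1.59 ± 0.32 (adjusted p 0.0433). These calls held without the first TGFβ/IL-34/FICZ library, with adjusted p of 0.0235, 0.0496 and 0.0194. All 3 were lost with no filter on low values, with the experiment code of the descriptions as a block, and without any of several single libraries, with adjusted p up to 0.126 for Ccl9, 0.249 for Ccl6 and 0.241 for Ccl17 without the second TGFβ/IL-34 library. Ccl3 and Ccl4 gave differences of 3.56 ± 1.02 and 2.07 ± 0.61 that did not pass (adjusted p 0.129 and 0.135). For Ccl5, Ccl22, Ccl24 and Ccl2 the difference lay between -2.32 and 0.35, with adjusted p of 0.431 to 0.711.

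**Figure D4:**
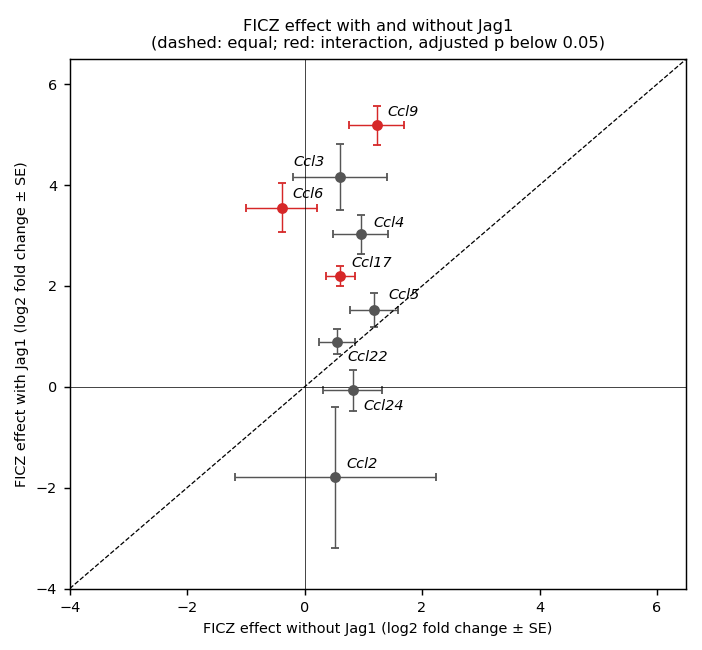
Log2 fold change with FICZ in the absence of Jag1 (horizontal axis) and in its presence (vertical axis) for the 9 tested genes, with SE from limma as bars. The dashed line marks equal effects and red marks an interaction with an adjusted p below 0.05. Ccl9, Ccl3 and Ccl6 lie highest above the line, while Ccl5 and Ccl22 lie close to it.

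The Jag1 only sample had no replicate and was compared with the range of the other 10 samples without a test. Ccl17 was below that range, at 1123 normalized counts against 1853 to 53747. Ccl5 was above it, at 11888 against 413 to 6930, and Ccl3 was above it at 302 against 3.39 to 221. The other 7 genes were within the range. Set beside the mean of TGFβ/IL-34/Jag1, which differs from it by the 2 cytokines, the Jag1 only sample was 20.3-fold higher for Ccl3, 19.3-fold for Ccl9, 18.6-fold for Ccl5, 15.3-fold for Ccl6 and 4.53-fold for Ccl4. Ccl24 was alike in both, with a ratio of 0.989. Per kilobase, Ccl5 made up 19.2% of the summed signal of the 10 genes in this sample, against at most 3.98% in any other. The summed T cell and NK cell markers were also highest here, at 1106 normalized counts, of which Gzmb gave 1072 while Ncr1 was at 0, and their part in the Ccl5 level was not tested.

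Most of these genes lie in clusters. Ccl22 (chr8:95471226-95478327) and Ccl17 (chr8:95534358-95538664) span 67.4 kb of GRCm39 on the plus strand, with Cx3cl1, which encodes the chemokine fractalkine, between them. While Ccl17 fell 13.6-fold with Jag1, Cx3cl1 was at 4537 and 4687 normalized counts in TGFβ/IL-34 and at 12758, 7659 and 7110 with Jag1 (log2 fold change 0.94, limma, adjusted p 0.116). On chromosome 11, Ccl5, Ccl9, Ccl6, Ccl3 and Ccl4 follow each other within 138.9 kb (chr11:83416602-83555509), all but Ccl4 on the minus strand, and all 5 rose with FICZ in the presence of Jag1. The next tested genes outside were Heatr9 on the Ccl5 side and Wfdc17 on the Ccl4 side. Heatr9 was at 11.4 to 25.6 normalized counts in TGFβ/IL-34/Jag1 and at 32.4 to 49.4 with FICZ (log2 fold change 1.13 ± 0.39, adjusted p 0.0767), and Wfdc17 at 2.24 to 18.5 and 13.2 to 19.3 (0.76 ± 0.67, adjusted p 0.516). Ccl2 and Ccl7 are neighbours elsewhere on chromosome 11 (chr11:81926397-81938351). Ccl24 stands alone on chromosome 5 (chr5:135598668-135601905, minus strand).

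**Figure D5:**
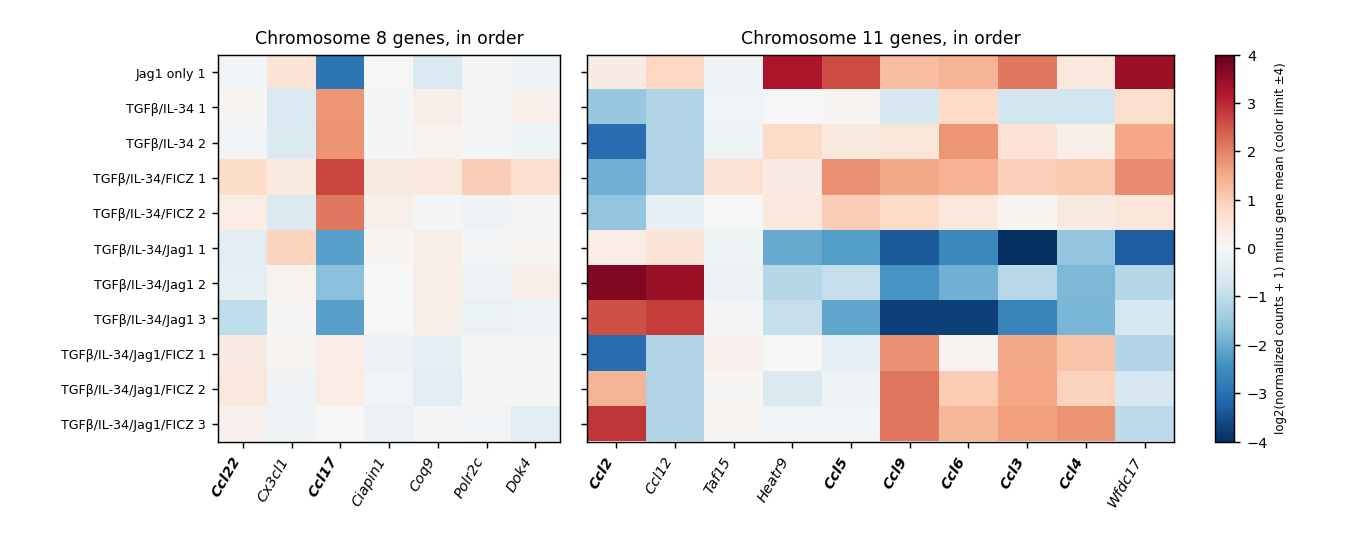
Each column is a tested gene in chromosomal order (CC chemokines of the set in bold) and each row a sample, colored by log2(normalized counts + 1) minus the mean of the gene over all 11 samples. Columns are not to scale in distance, and Ccl2 and Ccl12 belong to a separate group from the genes that follow Taf15. Ccl9, Ccl6 and Ccl3 are lowest in the 3 TGFβ/IL-34/Jag1 samples, and the neighbours of Ccl17 show little of its pattern.

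Likeness of pattern was measured as the root mean square difference of centred log2(normalized counts + 1) over the 11 samples and is a description. Members were compared with each other at any level, and with other genes that had a mean of at least 50. Between members the closest pair was Ccl3 and Ccl9, at 0.70, and the farthest Ccl17 and Ccl24, at 4.61. Ccl2 and Ccl7, the low pair, were at 1.32. Ccl17 was nearest to Mtus1 (0.58), Id3 and Tbxas1, and Ccl22 to Tagln2 (0.16), Rbmx and Inf2. Ccl3 was nearest to Arhgef10l (0.38), Lama5 and Tmem40, and Ccl9 to Lama5 (0.46), Cyp11a1 and Kcnk5. The nearest genes of Ccl4 were Gtse1 (0.36), Top2a and Tnfrsf26, those of Ccl5 Dhrs3 (0.47), Cdkn2b and M1ap, and those of Ccl6 Tlr12 (0.63), St3gal5 and Sgms1. For Ccl24 the nearest of those other genes were Hand1 (1.17), Tspan9 and Fbln2 (1.27), the last of which is a listed stromal marker. For Ccl2 they were Ltbp2 (1.49), Tmem26 and Aoc1.

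Among 9 tested receptors of CC chemokines, Ccr4, which binds Ccl17 and Ccl22, was lowest in TGFβ/IL-34/Jag1 and highest in TGFβ/IL-34/Jag1/FICZ among the 4 groups with replicates. It was at 27.8 and 16.97 normalized counts in TGFβ/IL-34, 17.5 and 21.6 with FICZ, 6.10, 7.44 and 6.31 with Jag1 and 102, 84.0 and 92.1 with both, and rose with FICZ in the presence of Jag1 (log2 fold change 3.62 ± 0.37 SE, limma, adjusted p 0.000168). In that contrast Ccr2 also rose (2.17 ± 0.48, adjusted p 0.011). Jag1 without FICZ lowered Ccr2 (-3.86 ± 0.54, adjusted p 0.00253) and Ccr4 (-1.58 ± 0.41, adjusted p 0.0498) and raised Ccrl2 (1.61 ± 0.34, adjusted p 0.019). Of 14 further CC chemokines only Ccl12, Ccl25 and Ccl27a reached the filter, and Ccl12 fell with FICZ in the presence of Jag1 (-3.44 ± 0.93, adjusted p 0.0279), opposite to the 7 members that rose. Of 8 tested chemokines of the CXC, CX3C and XC families, Cxcl12 rose with Jag1 without FICZ (4.02 ± 0.92, limma, adjusted p 0.0286). Cxcl12 was at 0 in all samples without Jag1 and at 3.94 to 28.5 in TGFβ/IL-34/Jag1, and the part of OP9 cells in it was not tested. Cxcl1 (2.07 ± 0.46) and Cxcl3 (1.58 ± 0.35) rose with Jag1 and FICZ together (limma, adjusted p 0.0327 for each). Of 15 regulators of chemokine genes from the NF-κB, STAT and IRF families, Irf4 (-0.72 ± 0.18, limma, adjusted p 0.0198) and Stat5a (-0.79 ± 0.24, adjusted p 0.0461) fell with FICZ in the presence of Jag1. Nfkbia rose with Jag1 without FICZ (1.07 ± 0.24, limma, adjusted p 0.0281) and Nfkbiz with Jag1 and FICZ together (0.78 ± 0.19, adjusted p 0.0466).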

How the data were processed

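The authors quantified reads with salmon against Ensembl GRCm39 transcripts, summed them to genes with tximport and deposited a DESeq2-normalized signal per gene (normalized counts). Versions are not given in the sources used here. Low values were whole multiples of 1 read, within 0.1 steps, in 80.8% to 98.4% of cases for genes with a single transcript and in 52.3% to 57.8% over all genes, so reads were not recovered and no count model was run. Genes with at least 10 normalized counts in at least 2 samples were tested (13095) on log2(value + 1). The limma package (3.58.1, under R 4.3.3) fitted all 11 samples with a mean for each group by lmFit and contrasts.fit, followed by eBayes with an intensity trend, which left 6 residual degrees of freedom for two-sided tests. Benjamini-Hochberg adjustment was made over all genes in each of 6 contrasts, with a threshold of 0.05. Fold changes on this scale understate those of low genes. Replicate numbers paired the samples with Jag1 alone and those with Jag1 and FICZ, which share experiment codes (correlations of deviations 0.153, 0.122 and 0.166). The experiment code in the authors' sample table differed from the description in 1 sample, the first of TGFβ/IL-34. Exon lengths, starts and sequences came from GENCODE vM39 on GRCm39, which held 21676 of the 21860 genes. The scripts were tested on simulated data. Members, marker lists and gene lists were chosen with earlier results of these data known. All 10 members were named, list genes only where called, and for each tested member the 3 genes nearest in pattern. Where leaving out a library left an arm with 1 sample, its spread was assumed equal to that of the other groups. Some receptor and promoter results are not reported here.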

Additional observations from a re-analysis of the deposited data

Results flagged for a closer look

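For 3 genes the FICZ effect differed between cultures with and without Jag1 by the interaction test. On the log2 scale the effect was larger with Jag1 by 3.96 ± 0.61 (SE) for Ccl9 (limma, adjusted p 0.0221), by 3.95 ± 0.77 for Ccl6 (adjusted p 0.043) and by 1.59 ± 0.32 for Ccl17 (adjusted p 0.0433). All 3 samples of TGFβ/IL-34/Jag1/FICZ were above all 3 of TGFβ/IL-34/Jag1 for each gene, whereas without Jag1 the FICZ and control samples overlapped for Ccl6. How many of all genes separate in this way was not counted. The interaction calls depend on the processing, as described next.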

How the results depend on the processing

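Over 54 pairs of a gene and a contrast, no fold change reversed a call, and 11 of the 20 calls passed in every alternative run, 6 of them in FICZ with Jag1. Of the alternatives over single genes, 49 lost and 15 gained a call. The members called by the interaction fell from 3 to 0 with no filter or with the description code as a block, and to 1 with the replicate block or, chosen after seeing the data, with the code of the authors' table as a block. With only the groups of a contrast, Jag1 with FICZ called 0 members and Jag1 and FICZ together 6. With the replicate block these called 1 and 6, and FICZ with Jag1 called 7 as before. The numbers pair samples of the same experiment code in FICZ with Jag1 and, for replicates 1 and 2, in Jag1 with FICZ. The replicate block changed no member's call in FICZ with Jag1, FICZ without Jag1 or Jag1 without FICZ. Leaving out 1 library at a time gave 0 to 3 members in FICZ without Jag1, 0 to 4 in the interaction and 1 to 2 in Jag1 and FICZ together. The cause of these changes was not tested, but fewer libraries leave fewer residual degrees of freedom.

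Counts over all genes moved more. In FICZ with Jag1, 2312 genes became 3598 with only its groups and 4171 with the replicate block added to that fit. On leaving out a library they became 1389, without the second TGFβ/IL-34/Jag1/FICZ library, to 1821. In FICZ without Jag1, 3 genes became 5 with quantile normalization, 1 with the description code as a block and 0 with the authors' code as a block, only its groups or the replicate block. Leaving out a library gave 0 to 5734 there, the highest without the second TGFβ/IL-34/FICZ library, when the group rests on the library that stood apart. The same omission gave 5497 in the interaction and 5827 in Jag1 with FICZ, whose lowest counts were 9, without the second TGFβ/IL-34 library, and 54, without the second TGFβ/IL-34/Jag1/FICZ library. The interaction called 74 genes with no filter and 44 with the description code as a block, against 182. Jag1 with FICZ called 0 with only its groups and 6 with the replicate block, against 264. Jag1 and FICZ together called 2807 and 2632, against 587, and 35, without the first TGFβ/IL-34 library, to 305 on leaving out a library. Jag1 without FICZ called 195, without the second TGFβ/IL-34 library, to 713, against 864. Ccl2, Ccl7 and, without Jag1, Ccl24 rest on a few reads, which limits their fold changes.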
